A study of Homo sapiens with 4 samples.

Results

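Interferon-stimulated genes are the genes that cells switch on when type I interferon reaches its receptor. The 46 genes described here are a list of common members of this group, which was chosen with earlier results of these data known. Their loops were found by position. A loop counted for a gene when a GENCODE transcript start of that gene lay in one of the loop's 5 kb anchors. The data are H3K27ac HiChIP loops of M14, a human melanoma cell line in which doxycycline switches on 1 hairpin RNA that targets STAG2, a subunit of cohesin. HiChIP ligates pieces of chromatin that lie close together and then enriches them with an antibody, here one that recognises H3K27ac, a histone mark found at active promoters and enhancers. WT cells were kept without doxycycline and STAG2-KD cells were given it for 5 days. Both groups carried the hairpin construct, all cells came from 1 line, and only STAG2-KD cells had the drug that switches the hairpin on. Effects of doxycycline or of the hairpin RNA itself therefore cannot be told apart from those of STAG2 loss. Of the 4 labelled samples, 2 per group, 1 loop list per group was analysed. There were 27289 WT loops and 25621 STAG2-KD loops in all, and 32 of the 46 genes had a loop in either list. No difference between the lists had a replicate check, so no p-value was computed, and each interval below covers the counting of loops only.

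In the type I interferon pathway, the receptor activates the kinases JAK1 and TYK2. Their signal leads to the factor ISGF3, which contains STAT2 and IRF9 and binds the interferon-stimulated response element in the promoters of its target genes. The products of these genes sense or degrade viral RNA, block virus entry and release, or mark proteins with the ubiquitin-like modifier ISG15. In tumour cells, including melanoma, the same genes are known as a readout of interferon signalling.

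The promoters are shown first, because the response element is what many of these genes share in sequence. The element was searched as its core, GAAANNGAAA on either strand, with N standing for any base and overlapping matches allowed. RefSeq promoter windows of GRCh38, from 250 bases before to 50 bases after the start, were found for 38 of the 46 genes. The core was present in 25 of these 38 windows (65.8%), against 3.57% of all 35116 windows of the same length. The longer form GAAANNGAAACT was present in 16 windows (42.1%), against 0.273% of all windows. The GAS element, a site of the interferon gamma response, was searched as TTCNNNGAA and was present in 9 windows (23.7%), against 7.66% of all windows. The following stretches give the 200 bases before the RefSeq start of 6 genes whose loops are described below, read 5′ to 3′ on the gene's strand, with the core in capitals. They were placed on hg19 by exact match.

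The IFI6 stretch lies on the minus strand at chr1:27998704-27998903 and holds 3 cores.
IFI6: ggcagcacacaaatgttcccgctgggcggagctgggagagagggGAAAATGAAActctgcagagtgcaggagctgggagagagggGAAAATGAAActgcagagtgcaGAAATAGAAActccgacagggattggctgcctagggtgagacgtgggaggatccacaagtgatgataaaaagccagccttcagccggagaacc
The LGALS3BP stretch lies on the minus strand at chr17:76976006-76976205 and holds 1 core.
LGALS3BP: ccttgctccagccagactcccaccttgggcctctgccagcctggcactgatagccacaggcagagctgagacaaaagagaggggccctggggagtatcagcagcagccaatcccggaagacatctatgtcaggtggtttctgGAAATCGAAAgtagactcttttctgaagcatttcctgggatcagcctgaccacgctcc
The IFI44 stretch lies on the plus strand at chr1:79115274-79115473 and holds 1 core, read here on its opposite strand.
IFI44: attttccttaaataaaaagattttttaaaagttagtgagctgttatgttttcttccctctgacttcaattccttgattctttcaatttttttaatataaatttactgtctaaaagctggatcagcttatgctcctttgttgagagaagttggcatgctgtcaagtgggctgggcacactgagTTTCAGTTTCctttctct
The IFI44L stretch lies on the plus strand at chr1:79085933-79086132 and holds 2 cores of the same 10 bases.
IFI44L: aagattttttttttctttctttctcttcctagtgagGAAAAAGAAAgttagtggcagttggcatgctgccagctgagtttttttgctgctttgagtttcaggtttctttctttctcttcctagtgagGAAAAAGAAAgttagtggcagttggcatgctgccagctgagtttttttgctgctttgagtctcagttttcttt
The IFITM3 stretch lies on the minus strand at chr11:320861-321060 and holds 2 cores.
IFITM3: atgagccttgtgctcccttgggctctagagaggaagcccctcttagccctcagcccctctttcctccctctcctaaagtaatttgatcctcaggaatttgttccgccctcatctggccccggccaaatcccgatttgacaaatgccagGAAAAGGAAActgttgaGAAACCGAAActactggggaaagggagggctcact
The PARP14 stretch lies on the plus strand at chr3:122399486-122399685 and holds 1 core.
PARP14: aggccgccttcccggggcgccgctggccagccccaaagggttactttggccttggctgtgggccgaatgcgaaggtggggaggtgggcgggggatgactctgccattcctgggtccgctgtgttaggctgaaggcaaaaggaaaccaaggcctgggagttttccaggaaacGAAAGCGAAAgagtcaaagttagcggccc

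The first comparison asked how many loops the interferon-stimulated gene starts carried with and without STAG2 knockdown. WT had 56 distinct loops at these starts and STAG2-KD had 90, a ratio of 1.61. The same pair of bins was listed in both groups for 30 of these loops, called shared. A further 26 were private to WT (WT-only) and 60 private to STAG2-KD (STAG2-KD-only). Over all autosomal protein-coding starts the numbers went the other way, from 15175 loops in WT to 14385 in STAG2-KD, a ratio of 0.948. STAG2-KD-only loops made up 69.8% of the private loops at the interferon-stimulated genes (95% exact binomial interval 58.9 to 79.2) and 47.7% of the private loops at all protein-coding starts (46.9 to 48.4). The first share was 60.2% (50.7 to 69.1) when starts up to 5 kb outside the anchor were allowed. Loops that share an anchor are not independent, so the interval of the smaller set is too narrow. A HiChIP loop needs both contact and acetylated chromatin, and the lists cannot tell more contact from more acetylation at an anchor.

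The surroundings of the genes did not show this split. Loops with an anchor midpoint within 250 kb of a member's annotated 5′ end, but no anchor at a member start, came to 329 in the WT list and 316 in the STAG2-KD list. STAG2-KD-only loops made up 48.3% of the private loops in this neighbourhood (43.1 to 53.5). This comparison was chosen after the lists had been seen.

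Gene by gene, 20 of the 32 genes with a loop had more loops in STAG2-KD, where 34.4% of all 8564 protein-coding genes with a loop did. More loops in WT were found for 4 genes (background 43.4%) and equal numbers for 8 (background 22.1%). An excess of at least 2 loops in STAG2-KD was found for 11 genes (background 14.1%), and an excess of at least 2 loops in WT for 0 (background 18.3%). Loops in STAG2-KD alone were found for 8 genes (background 12.3%) and loops in WT alone for 1, USP18 (background 17.3%). Other protein-coding genes with the same number of loops over both lists, averaged gene by gene, would give 10.6 of 32 genes with more loops in STAG2-KD and 14.1 with more in WT. The median difference, STAG2-KD minus WT, was 1 loop over the 32 genes and 0 over all protein-coding genes with a loop. Neighbouring genes can count the same loop, so the 32 genes are not independent. With members whose starts lay within 500 kb joined into 1 locus, 13 of 21 loci with a loop had more loops in STAG2-KD. More in WT was found for 4 loci and equal numbers for 4. No background by locus is given.

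**Figure D1:**
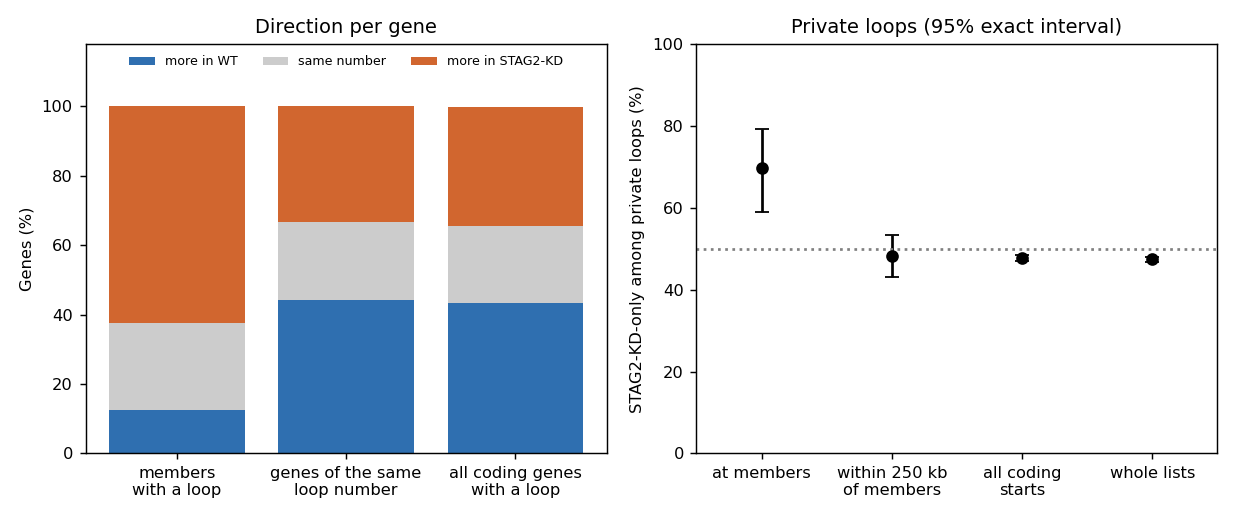
Left, the percentage of genes with more loops in WT, the same number, or more in STAG2-KD, for the 32 interferon-stimulated genes with a loop (members), for other protein-coding genes of the same loop number and for all 8564 protein-coding genes with a loop. Right, the STAG2-KD-only percentage of private loops with its 95% exact binomial interval, which is 69.8% at members and between 47.4% and 48.3% in the other sets.

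The genes were also read by their number of loops. Of 12 genes with 1 to 2 loops over both lists, 8 had more in STAG2-KD and 1 had more in WT, while 29.8% of other protein-coding genes in this class had more in STAG2-KD. Of 14 genes with 3 to 5 loops, 6 had more in STAG2-KD and 3 had more in WT, against 35.2% of the other genes with more in STAG2-KD. All 5 genes with 6 to 10 loops and the 1 gene with over 10 had more in STAG2-KD, against 39.5% and 46% of the other genes. Of the other genes in these classes, 42.6%, 44.1%, 44.6% and 44.8%, in order, had more in WT. The class of 3 to 5 loops was the closest to its background. There, 42.9% of members had more in STAG2-KD and 21.4% had more in WT.

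Sharing itself was like that of other genes. The 30 shared loops were 25.9% of all loops at the interferon-stimulated genes (18.2 to 34.8) and 26.8% of those at all protein-coding starts (26.2 to 27.4). Because of the unequal list sizes at these genes, shared loops were 53.6% of the WT loops (39.7 to 67.0) and 33.3% of the STAG2-KD loops (23.7 to 44.1). The same shares at all protein-coding starts were 41.2% and 43.4%. Summed over genes, 25.2% of loops were shared, and 27.7% at genes of the same loop number.

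**Figure D2:**
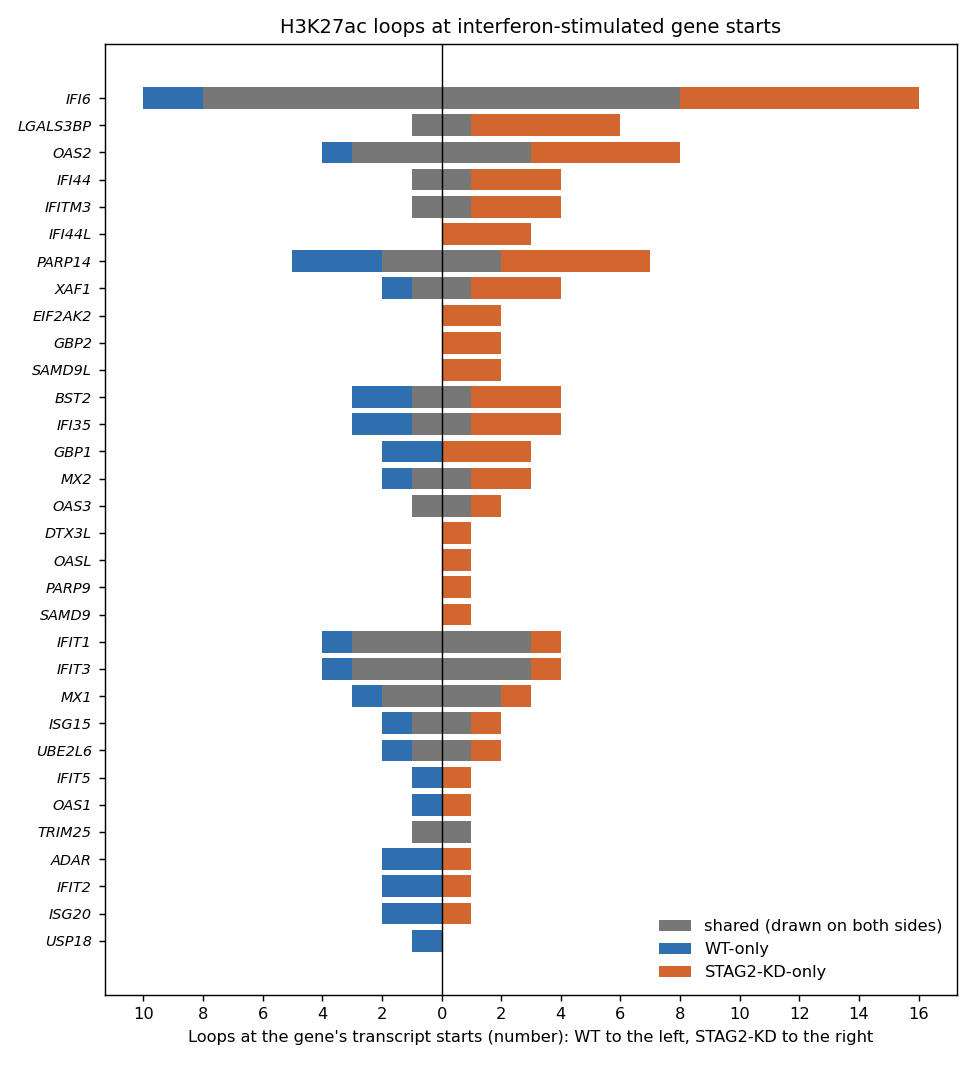
Number of loops at the transcript starts of each of the 32 interferon-stimulated genes with a loop, with WT to the left and STAG2-KD to the right of 0, ordered by the difference. Grey marks shared loops, which are drawn on both sides, blue WT-only and orange STAG2-KD-only loops. IFI6 is highest in both lists, and 20 genes reach further to the right than to the left.

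The genes were then read by role, with roles assigned after the counts were known. The groups were not tested against each other. Of all protein-coding genes with a loop, 34.4% had more in STAG2-KD, 43.4% had more in WT and 22.1% had equal numbers. The group of ISG15 conjugation held ISG15, its conjugating enzyme UBE2L6, the ligase genes HERC5 and TRIM25 and the protease USP18. HERC6 was counted with them as a relative of HERC5. These genes had 6 WT loops and 5 STAG2-KD loops. Of the 4 of them with a loop, 0 had more in STAG2-KD. Genes whose products sense or act on RNA had 17 loops in WT and 24 in STAG2-KD, with 6 of 13 genes higher in STAG2-KD and 3 higher in WT. Membrane proteins and GTPases had 11 and 17 loops, with 5 of 6 genes higher in STAG2-KD. ADP-ribosylation, nuclear body and TRIM ligase genes had 5 and 8 loops. The nuclear body and TRIM genes among them, SP100, SP110, TRIM21 and TRIM22, had no loop. The 3 genes with a loop, PARP9, DTX3L and PARP14, lie at the same locus and were all higher in STAG2-KD. Among these 3, PARP9 and DTX3L counted the same single loop. The remaining induced genes had 17 and 36 loops, with 6 of 6 higher in STAG2-KD, and so held 24 of the 60 STAG2-KD-only loops. IFI6 was counted here and not with the membrane proteins, although its product is one. It gave 10 of the 17 WT loops, 16 of the 36 STAG2-KD loops and 8 of the 24 STAG2-KD-only loops.

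IFI6, an interferon-induced membrane protein, had more loops in each list than any other of the 46 genes. The gene (ENSG00000126709) lies on the minus strand of chromosome 1 from 27992575 to 27998723 in hg19, and all of its looped starts fall in the bin from 27995001 to 28000000. It carried 10 WT loops and 16 STAG2-KD loops. The lists had 8 of these in common, which left 2 for WT and 8 for STAG2-KD. Shared loops reached the starts of FAM76A at 55 kb, PPP1R8 at 160 kb and WASF2 at 180 kb. STAG2-KD-only loops reached 2 bins with starts of AHDC1, at 65 kb and 115 kb, and a start of THEMIS2 at 205 kb. The nearest WT loop lay 2 and 3 bins from the AHDC1 loops and 8 bins from the THEMIS2 loop. The WT loops nearest to the AHDC1 loops had no anchor in the IFI6 start bin. Whether the AHDC1 contacts are shifted calls of those WT loops was not tested. The STAG2-KD-only loops at 550 kb and 670 kb were longer than the longest WT loop of the gene, at 370 kb, and neither had a protein-coding start at its far anchor. Other loops within 250 kb, which did not touch the gene, were also more numerous in STAG2-KD, at 47 against 32 in WT.

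LGALS3BP, which encodes a secreted glycoprotein that binds galectins, had 1 loop in WT and 6 in STAG2-KD. The gene lies on the minus strand of chromosome 17 from 76967320 to 76976029. The shared loop ran 55 kb to a start of C1QTNF1. The 5 STAG2-KD-only loops reached a start of CANT1 at 30 kb, another start of C1QTNF1 at 40 kb, starts of CEP295NL and TIMP2 at 80 kb, a further start of TIMP2 at 105 kb and a bin without a coding start at 20 kb. Elsewhere within 250 kb there were 13 WT and 12 STAG2-KD loops.

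IFI44 and IFI44L are neighbouring genes on chromosome 1 that encode related cytoplasmic proteins. IFI44, from 79115481 to 79129763 on the plus strand, had 1 loop in WT and 4 in STAG2-KD. IFI44L, from 79085587 to 79111830, had 0 in WT and 3 in STAG2-KD, and its start bin was no anchor in the WT list. The shared loop joined IFI44 to the bin from 79295001 to 79300000, at 180 kb. In STAG2-KD alone, IFI44L reached the same bin at 210 kb, both genes reached the bin from 79150001 to 79155000, and a loop of 30 kb joined the pair. A STAG2-KD-only loop of 645 kb ran from IFI44 to a start of DNAJB4.

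The oligoadenylate synthetase genes OAS1, OAS3 and OAS2, whose enzymes activate RNase L on double-stranded RNA, lie side by side on chromosome 12. Together they carried 4 WT and 9 STAG2-KD loops, and 3 were shared. OAS2 had 4 and 8, OAS3 had 1 and 2, and OAS1 had 1 in each list. The shared loops joined OAS3 to OAS2 at 40 kb, 2 starts of OAS2 to each other at 25 kb, and the downstream OAS2 start to the starts of DDX54 and RITA1 at 180 kb. The WT-only loop joined OAS1 to OAS2 at 75 kb, and a STAG2-KD-only loop joined OAS1 to OAS3 at 35 kb. In STAG2-KD alone, both OAS2 start bins reached the bin from 113475001 to 113480000, at 60 kb and 35 kb, and the upstream start also reached DDX54 and RITA1 at 205 kb. OASL, a related gene elsewhere on the chromosome, had 0 and 1.

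PARP14, an ADP-ribosyltransferase, had 5 WT and 7 STAG2-KD loops, and 2 were shared. Its hg19 position is chromosome 3, plus strand, from 122399686 to 122449687. All 5 STAG2-KD-only loops ran in the upstream direction, from 145 kb to 295 kb, among them to starts of KPNA1 at 165 kb and 220 kb and of FAM162A at 280 kb. The WT-only loops ran to a bin at 70 kb, to starts of HSPBAP1 and SLC49A4 at 115 kb and to a start of KPNA1 at 180 kb. Those at 70 kb and 180 kb also ran upstream, as did both shared loops, at 105 kb and 120 kb. PARP9 and its ligase partner DTX3L share a start bin, so their single STAG2-KD-only loop of 180 kb, to starts of FAM162A and MIX23, cannot be assigned to either. This loop lay 2 bins from the nearest WT loop. The other loops within 250 kb of PARP14 came to 17 WT and 6 STAG2-KD loops, the opposite direction to the gene itself.

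IFITM3, a membrane protein that blocks virus fusion, had 1 loop in WT and 4 in STAG2-KD. The shared loop ran 55 kb, and the STAG2-KD-only loops ran 20 kb, 30 kb and, to starts of BET1L and RIC8A, 115 kb. The adjacent IFITM1 and IFITM2 had no loop in either list.

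**Figure D3:**
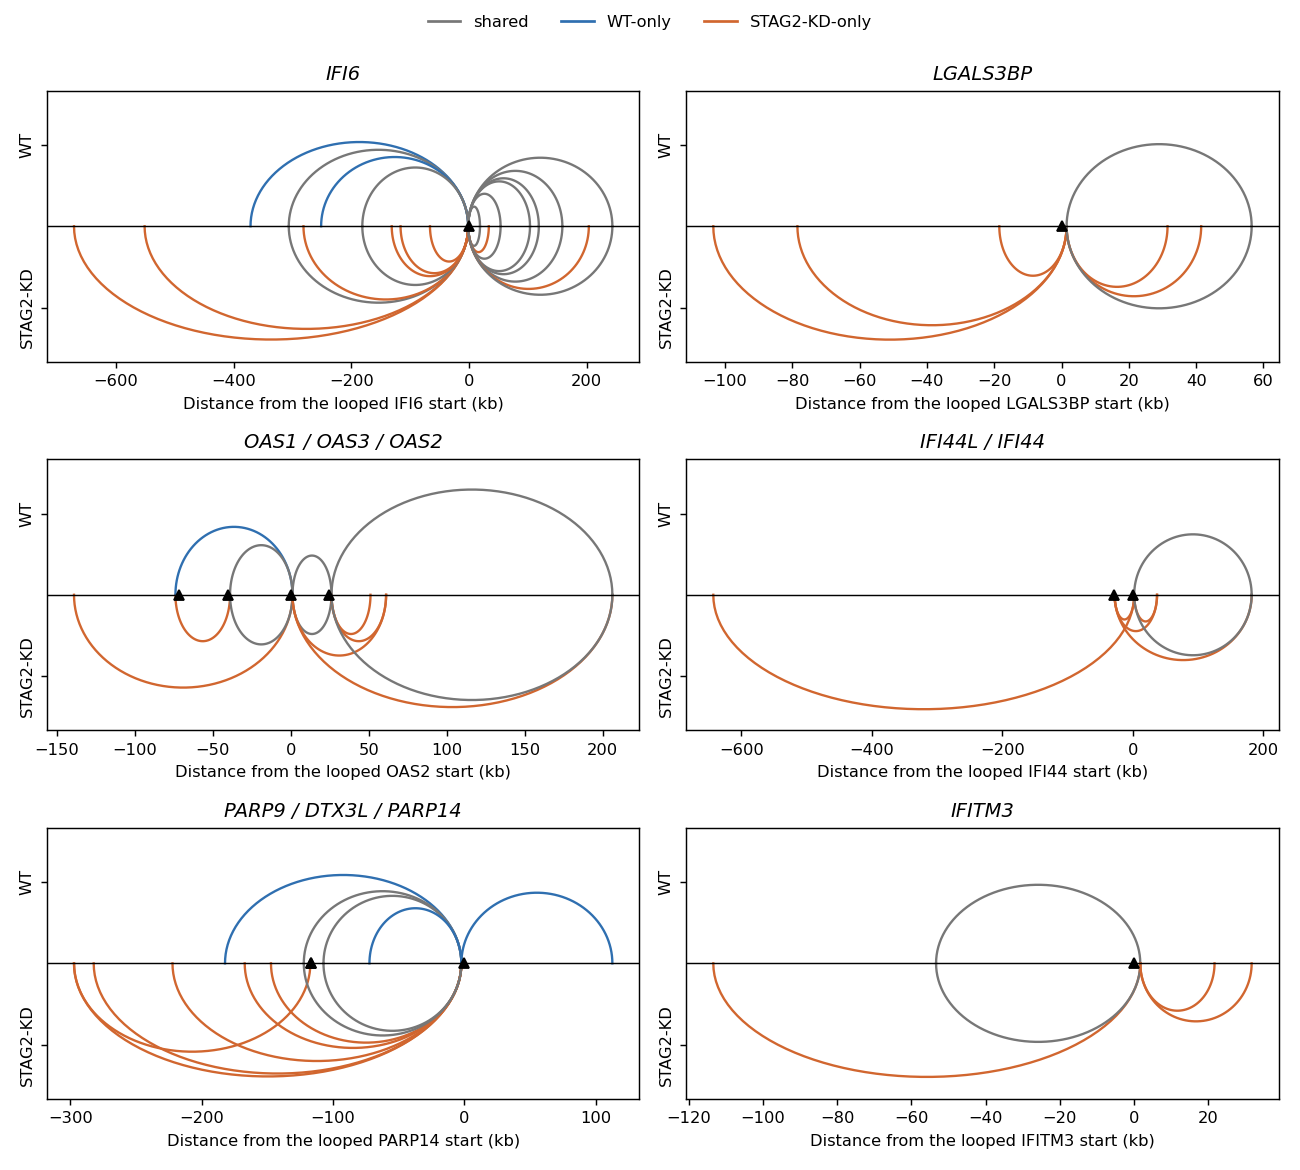
Loops at 6 loci by distance in kb from the looped transcript start of the gene named under each panel, along the genome from left to right whatever the gene's strand. Arcs above the line are WT loops and arcs below it STAG2-KD loops, grey where shared, blue where WT-only and orange where STAG2-KD-only, and triangles mark member starts inside anchors. IFI6 shows 10 arcs above and 16 below, and LGALS3BP shows 1 above and 6 below.

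Several genes carried no WT loop at all. EIF2AK2, the RNA-dependent kinase PKR, had 0 loops in WT and 2 in STAG2-KD, at 75 kb to starts of CEBPZ and NDUFAF7 and at 235 kb. SAMD9L, an antiviral factor, had 0 and 2, and one of these joined it to the related SAMD9 at 30 kb. GBP2, a guanylate-binding GTPase, had 0 and 2, which reached GBP1 at 60 kb and GBP3 at 105 kb. Its neighbour GBP1 had 2 WT and 3 STAG2-KD loops, none the same in both lists. Of the 3, the STAG2-KD-only loop to GBP3 at 40 kb lay 1 bin from the WT-only loop to GBP3 at 45 kb. These genes rest on at most 3 loops per list.

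The targets that the study followed by immunoblot among these genes were ISG15 and USP18. ISG15 had 2 loops in each list, with 1 shared. The shared loop ran 230 kb to starts of B3GALT6 and SDF4 from the bin that also holds HES4, where an alternative ISG15 transcript starts. The STAG2-KD-only loop of 220 kb reached the same partner bin from the RefSeq start of ISG15, and lay 2 bins from the nearest WT loop. The WT-only loop ran 20 kb to a start of AGRN. USP18, the protease that removes ISG15, had 1 loop in WT, of 70 kb to a start of PEX26, and 0 in STAG2-KD.

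The other genes with a loop had at most 4 loops in a list, and those named here were chosen after their values were seen. XAF1, an inhibitor of the apoptosis inhibitor XIAP, had 2 in WT and 4 in STAG2-KD. BST2, which tethers budding virus and shares its start bin with MVB12A, had 3 and 4. IFI35, which shares a start bin with VAT1, also had 3 and 4. The dynamin-like GTPases MX1 and MX2 had 3 and 3, and 2 and 3. IFIT1, which binds foreign RNA, and its neighbour IFIT3 each had 4 loops in each list with 3 shared, and 1 shared loop of 60 kb joined the pair. IFIT5, OAS1, TRIM25 and UBE2L6 had equal numbers in both lists, at 1 or 2. Higher in WT than in STAG2-KD were the RNA editing enzyme ADAR, the exonuclease ISG20 and IFIT2, each with 2 and 1.

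No loop was found for 14 genes, namely CMPK2, DDX60, EPSTI1, HERC5, HERC6, IFI27, IFITM1, IFITM2, PLSCR1, RSAD2, SP100, SP110, TRIM21 and TRIM22. The 32 of 46 genes with a loop compare with 44.5% of all 19229 autosomal protein-coding genes. A gene without a listed loop may still have contacts under the caller's limit.

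Neighbouring members contacted each other. The count of loops between neighbours was not made for other genes, so it cannot be called particular to this set. Different members were joined by 4 WT loops and 8 STAG2-KD loops, and 2 of them occurred in both. The shared ones joined IFIT3 to IFIT1 and OAS3 to OAS2, and the WT-only ones joined IFIT1 to IFIT5 and OAS1 to OAS2. The 6 STAG2-KD-only ones joined IFI44L to IFI44, GBP1 to GBP2, IFIT2 to IFIT3, OAS1 to OAS3, MX2 to MX1 and SAMD9 to SAMD9L. More widely, a protein-coding start at both anchors was found for 56.7% of shared loops at the members (37.4 to 74.5), 53.8% of WT-only loops (33.4 to 73.4) and 53.3% of STAG2-KD-only loops (40.0 to 66.3). At all protein-coding starts the shares were 38.7%, 31.4% and 29.8%, which lay below the member intervals of both private classes and inside that of the shared class. Members at 1 locus share anchors, so these loops are not independent.

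The anchors themselves were then compared. Member starts lay in 39 distinct anchors, with 28 used in WT, 35 in STAG2-KD and 24 in both. Only WT used 4 of them and only STAG2-KD used 11. Among the 60 STAG2-KD-only loops, 31 joined bins that were both anchors in WT already (51.7%, 38.4 to 64.8), 27 had 1 such anchor and 2 had 0. The member anchor was missing from the WT list for 15 loops and the partner anchor for 15. Among the 26 WT-only loops, 18 had both anchors in STAG2-KD (69.2%, 48.2 to 85.7). At all protein-coding starts the shares with both anchors were 46.2% for STAG2-KD-only loops and 44.7% for WT-only loops. In the surroundings within 250 kb they were 54.1% and 56.7%, and both lay inside the member intervals, so member loops did not stand apart from nearby loops in this respect.

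Distances did not separate the lists at these genes. The median distance between anchor midpoints was 80 kb for shared loops (interval of the median 55 to 120), 72.5 kb for WT-only loops (45 to 180) and 110 kb for STAG2-KD-only loops (65 to 160). At all protein-coding starts the medians were 75 kb, 100 kb and 100 kb. The intervals of the private medians overlapped, and their order turned when starts up to 5 kb outside the anchor were allowed, at 160 kb for WT-only and 130 kb for STAG2-KD-only loops. Loops of 200 kb or more made up 26.9% of the WT-only class and 26.7% of the STAG2-KD-only class. The longest member loop was 370 kb among WT loops and 670 kb among STAG2-KD loops.

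**Figure D4:**
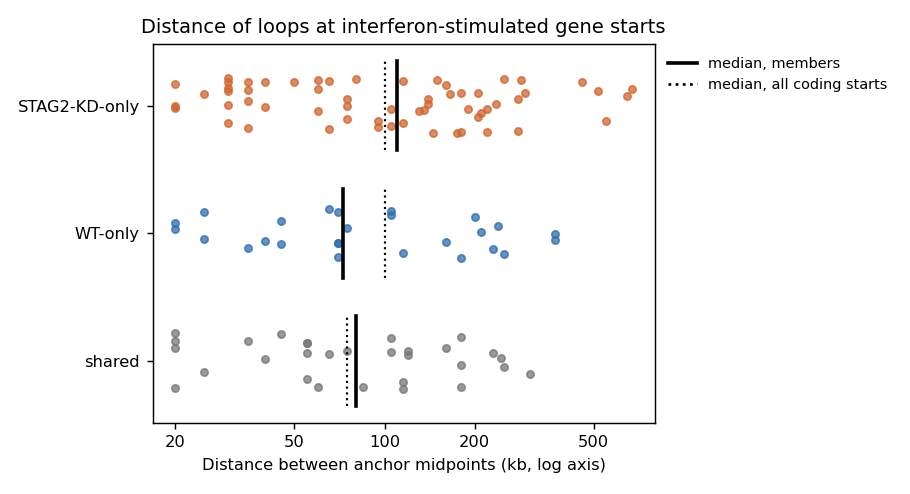
Distance between anchor midpoints in kb, on a log axis, of the 30 shared, 26 WT-only and 60 STAG2-KD-only loops at interferon-stimulated gene starts, with points scattered vertically for visibility. Solid lines mark the medians of these loops (80, 72.5 and 110 kb) and dotted lines the medians at all protein-coding starts (75, 100 and 100 kb).

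The response element was set beside the loop counts. Of the 25 genes with the core in the promoter window, 18 had a loop, and 12 of these had more in STAG2-KD, 1 had more in WT and 5 had equal numbers. Of the 13 genes with a window but no core, 8 had a loop, and 4 had more in STAG2-KD, 1 more in WT and 3 equal numbers. The groups with and without the core were not tested against each other. The background over all protein-coding genes with a loop was 34.4% with more in STAG2-KD, 43.4% with more in WT and 22.1% with equal numbers. In the complete 5 kb anchors, the core was present in 31 of the 39 member start anchors (79.5%, 63.5 to 90.7) and in 56.2% of all 30601 anchors. Partner anchors were close to all anchors, at 17 of 25 for shared loops, 14 of 24 for WT-only loops and 30 of 50 for STAG2-KD-only loops, and each of their intervals included the share of all anchors. No promoter window was found for GBP2, IFIT2, IFITM2, MX2, OAS2, OASL, TRIM22 or USP18.

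Counts were also taken at the RefSeq starts alone, a step chosen after the lists had been seen, because GENCODE lists many alternative starts. The bins of the 37 RefSeq starts that were placed on hg19 carried 36 WT loops and 64 STAG2-KD loops, and 21 were shared. The same count was not made at the RefSeq starts of all other genes. Loops of IFIT3, IFI35, ADAR and TRIM25 lay at alternative starts, and the RefSeq start bins of these genes carried 0 loops in both lists.

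Other genes of the pathway were counted from lists made by function, and the genes named from them were chosen after their values were seen. All 12 genes from receptor to factor had a loop, 8 with more in STAG2-KD, 3 with more in WT and 1 with equal numbers, and they had 31 WT and 40 STAG2-KD loops. Among them IRF1, an interferon-induced transcription factor, had the largest difference, with 7 and 13 loops. The ISGF3 subunit STAT2 had 7 and 8 loops with 5 shared, and the kinase TYK2 had 5 and 2. Of 40 further interferon-stimulated genes, 29 had a loop, 13 with more in STAG2-KD, 9 with more in WT and 7 with equal numbers. These counts compare with backgrounds of 34.4%, 43.4% and 22.1% of all protein-coding genes with a loop, as do those of the 12 genes. The 40 genes had 70 WT and 84 STAG2-KD loops. The gene with the most added loops was SLFN5, with 2 in WT and 9 in STAG2-KD, followed by the immunoproteasome subunit PSMB9 with 3 and 9 and the nuclear body gene PML with 0 and 4. The signal transducer STAT3 and the nuclear DNA sensor IFI16 were higher in WT, at 12 and 9, and 11 and 8. The difference between this list and the 46 genes was not tested. Of 6 melanocyte lineage genes, 5 had a loop and TYR had none, where 44.5% of all autosomal protein-coding genes had a loop. A loop at these starts cannot serve as a check of the cell line. The lineage genes had 24 WT and 15 STAG2-KD loops, with 3 genes higher in WT, 1 higher in STAG2-KD and 1 equal.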

How the data were processed

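H3K27ac HiChIP was carried out in WT and STAG2-KD M14 cells. Per the study's methods and the labels, the authors used HiC-Pro for alignment to hg19, hichip-peaks for H3K27ac peaks and FitHiChIP for loops, so a loop depends on peaks found in the same libraries. Each deposited list gives, without a header, a chromosome and the outer limits of both anchors. No counts, scores or q-values come with these positions, so depth per loop is unknown, and whether a list merges both replicates is not given in the sources used here. A loop missing from a list may lie just under the caller's limit. Samples were grouped by title.

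Anchors were read as 5 kb bins on hg19, and positions are printed counted from 1. Starts came from GENCODE release 44 on GRCh37. The gene list, the other lists and the comparisons were chosen with earlier results of these data known. Counts of genes are set beside all autosomal protein-coding genes with a loop in either list, and beside genes with the same number of loops in the union (20 or more pooled). Shares have exact Clopper-Pearson intervals at 95%, and medians have order-statistic intervals. Genes named in detail had at least 5 loops in a list, at least 2 loops in 1 list alone or a difference of at least 3 loops, or were immunoblot targets of the study. Genes at the same locus were added. Promoters printed are those of named genes with complete cores before the start, ordered by loop difference, at most 6. EIF2AK2, which ties with PARP14, was not printed because its core lies nearer the start than 10 bases. One gene of the pathway is not reported here. The single line off the 5 kb grid touched no member. Counting functions were tested on simulated data. Scripts ran in Python 3.11.15 (numpy 2.4.6; scipy 1.17.1), tables were read with pandas 2.3.3, and plots were drawn with matplotlib 3.10.9.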

Additional observations from a re-analysis of the deposited data

How the results depend on the processing

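No paired analysis was possible because only 1 list of loops per group was analysed, and for the same reason no replicate could be left out. Alternatives gave 402 values for 15 results. Of these, 387 lay within the reported interval (counts: within 1.5 times the reported count), and 15 moved. The difference in loops at member starts stayed above 0 in all of its alternatives. The 387 include all 294 values with 1 of 21 loci left out, so all 15 moved values came from the other alternatives. The largest locus, IFI6, held 10 of the 56 WT loops and 16 of the 90 STAG2-KD loops. Leaving out 1 locus could therefore not move these loop counts under the 1.5 times rule. Without 1 locus, member starts carried 46 to 56 loops in WT and 74 to 90 in STAG2-KD, STAG2-KD-only loops were 67.9% to 72.2% of private loops, and 17 to 20 genes had more loops in STAG2-KD. Scaling WT counts by the ratio of list sizes gave 52.6 loops against 90.

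With starts up to 5 kb outside the anchor, WT loops rose to 87 and STAG2-KD loops to 111, because more loops qualify. This lowered the STAG2-KD-only share of private loops from 69.8% to 60.2% (50.7 to 69.1), and the share at all protein-coding starts was not recomputed there. It also turned the order of the private median distances, to 160 kb for WT-only and 130 kb for STAG2-KD-only loops. In the first 50% of each chromosome's lines, WT had 18 loops and STAG2-KD 41, since fewer lines were counted. There, shared loops were 38.9% of WT and 17.1% of STAG2-KD loops, and 33.3% and 65.9% had a protein-coding start at both anchors; the cause of these shifts was not tested. When anchors could differ by 2 bins, shared loops were 67.9% of WT and 46.7% of STAG2-KD loops, as more loops can match. With partner starts within 5 kb, 82.1% and 71.1% had a protein-coding start at both anchors. A difference of at least 2 loops left 11 genes higher in STAG2-KD and 0 higher in WT. The long element was found in 16 windows and the GAS element in 9. Genes with no other coding gene in their start bins, a choice made after seeing the data, gave 48 loops in WT and 78 in STAG2-KD.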
